A study of Mus musculus with 24 samples.

Results

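Wide gained enhancers shared by both leukemia lists are regions of chromosomes 1 to 19 that the authors listed as gained in the tumor, measure 2200 bp or more, and overlap at least 1 bp of a k+ and of a k- leukemia enhancer region. They were chosen by these deposited positions and widths, so membership, width and presence in both lists describe the rule and are not findings. There were 1557 such regions among 15189 gained regions, 14959 of them on chromosomes 1 to 19. The study profiled mouse C57BL/6 bone marrow cells by ChIP-seq: normal granulocyte-monocyte progenitors (GMP), and a stem cell fraction (LSC) and a mature fraction (mAML) of acute myeloid leukemia, with H3K27ac, H3K4me1, H3K4me3 and input libraries in each of the 3 populations. The leukemia was driven by the MLL-AF10 fusion, and the labels describe culture of these leukemia cells in RPMI with serum and WEHI-conditioned medium. The labels do not say whether the 2 leukemia fractions came from 1 clone or several animals, nor how GMP were sorted. LSC libraries from a time course of A-485, which blocks the acetyltransferases p300 and CBP, at 0, 24, 48 and 72 hours were not analysed here. The lists compared are GMP (3332 regions), k+ (9404) and k- (13856). The labels do not say which of LSC and mAML stands behind k+ and k-.

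Enhancers are stretches of DNA that raise transcription of genes that can lie far away. Nucleosomes beside them carry H3K4me1, and active ones also carry H3K27ac, which p300 and CBP deposit, whereas H3K4me3 marks promoters. Very wide or densely clustered active enhancers are often found near genes that set cell identity. MLL fusions recruit transcription cofactors, among them the histone methyltransferase DOT1L through AF10, and keep a stem cell programme active in myeloid cells. The deposited lists hold positions only, without signal, read counts or replicates, so depth is unknown and a difference between lists carries no test. Shares below carry exact Clopper-Pearson 95% intervals, which cover counting error only and are too narrow because neighbouring regions are not independent.

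The wide shared regions held a larger share of gained length than of gained number, which the width minimum entails. They made up 10.4% of gained regions and 32.1% of gained length on chromosomes 1 to 19, or 5.29 Mb of 16.5 Mb. Their median width was 3000 bp (quartiles 2400 and 3800 bp, highest 11000 bp). Of these regions, 730 measured 2200 to 2800 bp, 442 measured 3000 to 3800 bp, 295 measured 4000 to 5800 bp and 90 measured 6000 bp or more. The width minimum did not fall in a gap of the distribution. Just inside it were 225 regions of 2200 bp, and just outside it were 304 shared gained regions of 2000 bp, with median lengths of 1400 and 1400 bp in k+, 2000 and 1800 bp in k-, and 45.5 and 50% of the region in both lists. Wide leukemia regions in both lists were gained less often than leukemia regions at large. Of 2253 merged k+ and k- regions of this width in both lists, 69.1% had no GMP partner. Of all merged leukemia regions, 90.0% had none. The rule used this contrast, and wider regions have more room to meet a GMP region, so nothing is read from it. The sets compared also differ in whether a region must be in both lists.

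**Figure D1:**
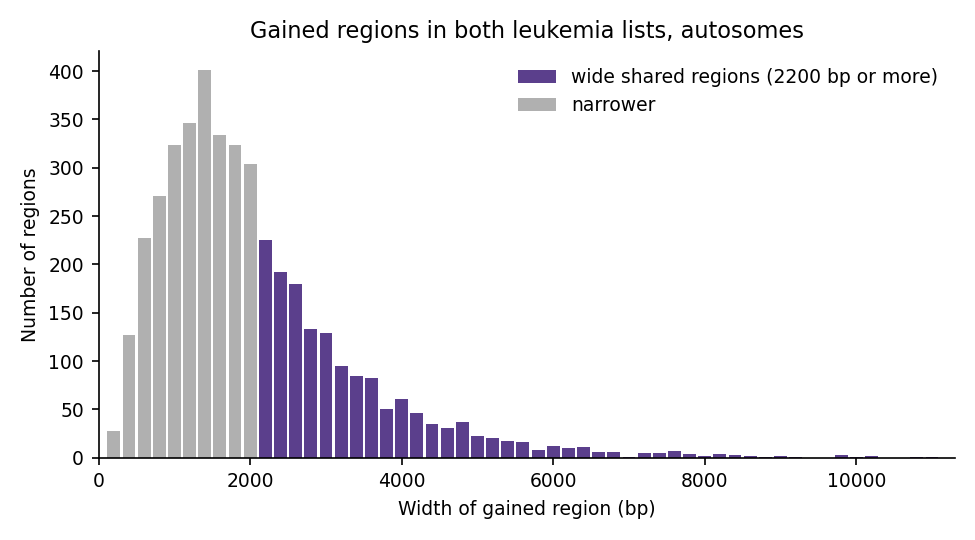
Number of gained regions on chromosomes 1 to 19 that overlap both leukemia lists, by width in bp in steps of 200 bp; purple bars are the 1557 wide shared regions and grey bars the 2686 narrower ones. The counts fall without a gap across the minimum, from 304 regions of 2000 bp to 225 of 2200 bp.

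The widest of these regions were mostly 1 k- region with shorter k+ regions inside it, the arrangement of 7 of the 9 regions wider than 9000 bp. The widest, 11000 bp on chromosome 19 in band qD2 (mm9, 58189801 to 58200800), was the only 1 of the 11 regions of 9000 bp or more in which k+ covered more than k-, with 9000 bp against 7600 bp and 5600 bp in both. On chromosome 14 in band qA3, from 26667001 to 26677800, 1 k- region spanned all 10800 bp and 3 k+ regions covered 6800 bp. On chromosome 15 in band qF2, from 101201401 to 101211600, the k- region spanned 10200 bp and 2 k+ regions covered 6000 bp. The region of the same width on chromosome 2 in band qH3, from 167577001 to 167587200, held 2 k+ regions covering 4400 bp. On chromosome 10 in band qC1, from 84011601 to 84021600, 2 k- regions covered 9000 bp and 2 k+ regions 5800 bp.

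Of the 3 regions of 9800 bp, that on chromosome 7 in band qA3 (25226601 to 25236400) had the largest part in both lists, 73.5% of its length. The others were on chromosome 15 in band qE1 (77628401 to 77638200), with 69.4% in both, and on chromosome 9 in band qD (72969601 to 72979400), with 44.9%. That on chromosome 9 was also the only 1 of the 11 with no other gained region within 12500 bp. The last of the 11 were a region of 9200 bp on chromosome 10 in band qC2 (95643001 to 95652200), where 4 k+ regions lay in 1 k- region, and 2 regions of 9000 bp. One lay on chromosome 19 in band qA (4292401 to 4301400), with 2 k+ and 3 k- regions, and one on chromosome 17 in band qE4 (84499001 to 84508000), where 3 k+ regions covered 3400 bp. The nearest GMP region to these 11 lay between 7.8 kb (chromosome 17) and 903.6 kb (chromosome 10, band qC1) away. Genes were not assigned to any region, since an mm9 annotation was not used here.

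Being in both lists did not mean being the same region in both. Of the 5.29 Mb, 2.72 Mb, or 51.5%, was in both lists at once, while 33.9% of the length was in k- alone and 14.6% in k+ alone. The median region had 52.4% of its length in both lists (quartiles 33.3 and 70.6%). At least 50% was shared in 840 of 1557 regions, or 54.0% (51.4 to 56.4%). All 4243 shared gained regions lay close to this, with 53.3% (51.8 to 54.8%), 50.3% of length in both lists and a median of 50%. Partial sharing was thus not particular to the wide ones. In 13 wide shared regions, or 0.83%, a single k+ and a single k- region had the same start and end. Over all shared gained regions this share was 4.78%. At the other extreme, 20 wide shared regions had 0 bp in both lists, because a k+ and a k- region only touched and were joined in the gained list. The shared bases formed 1 unbroken stretch in 1181 regions, 2 stretches in 308 and 3 or more in 48, and the longest stretch had a median of 1400 bp.

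In most wide shared regions 1 list alone reached the full width. A single k+ or k- region spanned 973 of them, or 62.5% (60.03 to 64.9%), end to end, so that joining the lists added no width. This was not particular to them. By list, 1 k- region spanned 46.2% of wide shared and 47.7% of all 4243 shared gained regions. For 1 k+ region these shares were 17.1 and 24.9%. A k+ and a k- region that each reached 2200 bp were present in 468 wide shared regions, or 30.1% (27.8 to 32.4%). Only the k- list had a region of this width in 674, only the k+ list in 256, and neither list in 159, or 10.2%, where only the joined region reached 2200 bp. In the 468 regions that were wide in each list, the median part in both lists was 73.7%. Asking for 2200 bp in each list itself favours a larger shared part, so nothing is read from this median. Seen from each list, 732 of its 1213 autosomal regions of 2200 bp or more put k+ inside a wide shared region, or 60.3% (57.5 to 63.1%). For k- these were 1149 of 2103, or 54.6% (52.5 to 56.8%). Most of the others lay in a merged leukemia region that met a GMP region (36.3% in k+ and 30.9% in k-). A further 3.38% of wide k+ and 14.5% of wide k- regions were gained in that list alone.

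The k- list covered more of these regions than the k+ list did. The median region had 2600 bp in k- and 2200 bp in k+, and the median difference within a region was 600 bp. Coverage was greater by k- in 1037 regions, or 66.6% (64.2 to 68.9%), greater by k+ in 458 and equal in 62. Over all 4243 shared gained regions the share with more k- was 58.6%, but equal lengths are more frequent among short regions. Among regions whose lengths differed, k- covered more in 69.4% (67.0 to 71.7%) of wide shared, 63.8% (61.8 to 65.8%) of narrower shared gained, and 68.6% (64.9 to 72.2%) of wide shared leukemia regions that met a GMP region. The width minimum applies to the joined region, so a wide region of 1 list can meet it. Only the k- list had a region of 2200 bp or more in 674, and only the k+ list in 256. The k- list also holds more regions in all. The parts of the rule and of list size in this difference were not tested.

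**Figure D2:**
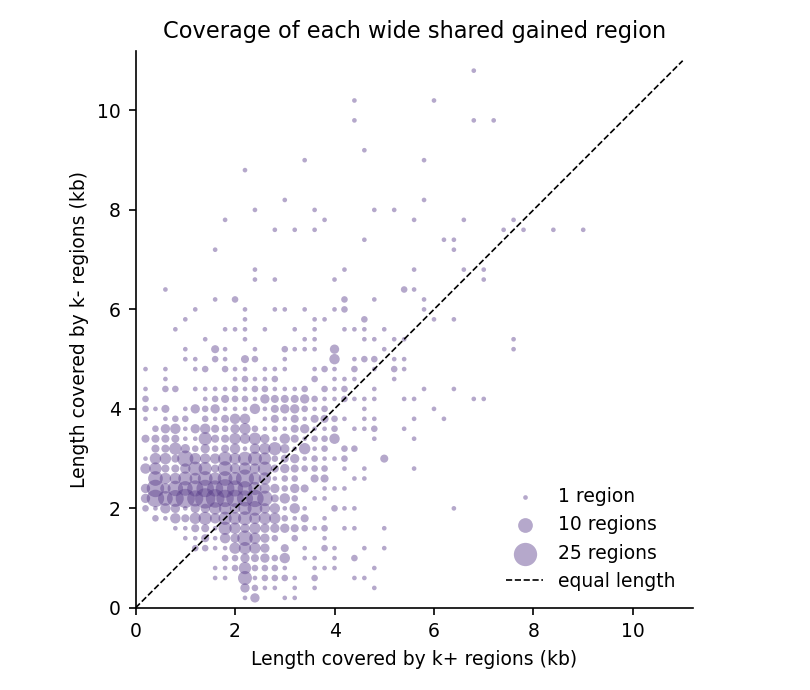
Length in kb covered by k+ regions (x axis) and by k- regions (y axis) in each of the 1557 wide shared regions; the area of a point gives the number of regions at that pair of lengths, and the dashed line marks equal length. More points lie above the line (1037 regions) than below it (458), and few lie on it (62).

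A k+ region inside a wider k- region was the most frequent arrangement. A single region of each list made up 1148 wide shared regions, or 73.7% (71.5 to 75.9%), against 86.0% of all shared gained regions, 93.1% (92.1 to 94.0%) of narrower ones and 68.8% (65.2 to 72.2%) of wide shared leukemia regions that met a GMP region. Of the 1148, the k+ region lay inside the k- region in 569, the reverse held in 222, and the 2 were staggered in 344. Among the staggered pairs, k+ lay towards lower positions in 178 and k- in 166. A further 257 regions held 1 k- region over several k+ regions, and 132 held 1 k+ region over several k- regions. The gaps between such k+ regions had a median of 600 bp and those between k- regions 800 bp, or a few steps of the 200 bp grid on which all positions lie. Wider regions have more room for several pieces, so nothing is read from the higher single-region share of narrower shared gained regions. When regions of 1 list no more than 1 kb apart were joined first, 93.4% of wide shared regions were made of 1 region of each list.

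The outer ends of the regions belonged mostly to k- and the middle to both lists. Of the 3114 ends, 55.9% (54.2 to 57.7%) were reached by k- alone, 30.3% by k+ alone and 13.7% by both at the same grid position. At 47.5% of the width, near the centre, 90.6% of regions were covered by k-, 76.7% by k+ and 67.2% by both. At 2.5% of the width these values were 69.0, 45.6 and 14.6%, and at 97.5% they were 70.4, 42.9 and 13.3%. An end needs 1 list only, so a lower shared part at the ends follows in part from how the regions were joined. The width minimum can also be met through 1 list alone. A single k- region spanned 720 regions whole, or 46.2%, against 47.7% of all shared gained regions. A single k+ region spanned 266, or 17.1%, against 24.9%. The part of the rule in the larger number of ends reached by k- was not tested.

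**Figure D3:**
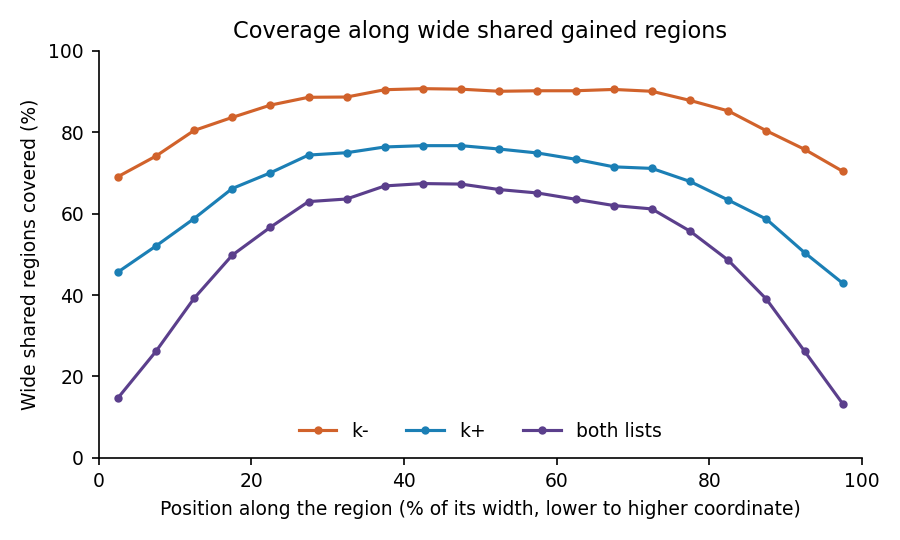
Percent of the 1557 wide shared regions covered by k- (orange), k+ (blue) and both lists (purple) at the middle of 20 equal parts of the region, from its lower to its higher coordinate. Coverage by both lists rises from 14.6% near the lower end to 67.4% around the centre and falls to 13.3% near the higher end, and k- lies above k+ throughout.

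The part in both lists varied little with width, while the composition changed. From the regions of 2200 to 2800 bp to those of 6000 bp or more, the median part in both lists was 50, 52.6, 54.2 and 55.5% in the 4 width classes. The share made of a single region of each list was 83.6% (80.7 to 86.2%) in the narrowest class and 36.7% (26.8 to 47.5%) in the widest. The room for several pieces grows with width, and its part in this fall was not tested. The share spanned whole by 1 k- region stayed between 45.1 and 48.4%. The share spanned whole by 1 k+ region was 19.04% (16.3 to 22.1%) in the narrowest class and 3.33% (0.693 to 9.43%, 3 of 90) in the widest.

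Regions with the least and the most in common show this range. Among regions of 4000 bp or more, 1 of 4200 bp on chromosome 7 in band qF1 (118214601 to 118218800) had 600 bp of k+ touching 3600 bp of k- and 0 bp in both. On chromosome 2 in band qA1 (11465601 to 11470800), k+ covered 3800 bp and k- 1600 bp, with 200 bp in both. In 4 others a k+ region of 200 bp, a single grid step, lay in a k- region of 4200 to 4800 bp: on chromosome 4 in band qE1 (140833801 to 140838600), on chromosome 2 in bands qE2 (102815601 to 102820000) and qA3 (28256201 to 28260400), and on chromosome 5 in band qC3.1 (65865801 to 65870000). In all, k+ covered 600 bp or less in 144 wide shared regions, or 9.25%, and k- in 41, or 2.63%.

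At the other end, 2 regions of 4200 bp on chromosome 1, in bands qC3 (71775001 to 71779200) and qC5 (82792001 to 82796200), had identical ends in k+ and k-. Both lay over 2 Mb from a GMP region, at 2422.8 and 2129.4 kb. The next in common part were on chromosome 15 in bands qE1 (77675201 to 77682800, 7400 of 7600 bp in both) and qE2 (85184001 to 85190800, 6600 of 6800 bp), and on chromosome 9 in band qF2 (110316401 to 110322400, 5800 of 6000 bp). The region in qE1 lay 2.6 kb from a GMP region, so a close match between the leukemia lists was found both near and far from GMP regions.

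No wide shared region held more than 5 k+ and k- regions, and 11 held 5, with a median width of 5400 bp (3400 to 9200 bp). In 7 of these, 4 k+ regions lay with 1 k- region. The 5 widest of the 11 are given here. On chromosome 10 in band qC2, the region of 9200 bp named above held 4 k+ regions of at most 2000 bp each. In the region of 9000 bp on chromosome 19 in band qA, 2 k+ and 3 k- regions covered 6400 and 7400 bp of 9000 bp. On chromosome 5 in band qB2 (34873401 to 34881800), 4 k+ regions covered 3600 bp and 1 k- region 8000 bp of 8400 bp. The other two were on chromosome 10, in bands qA3 (20866801 to 20874200, 3 k+ and 2 k- regions) and qB5.1 (66561001 to 66566600, 4 k+ regions in 1 k- region).

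Wide leukemia regions that met a GMP region had more of their length in both lists than the wide shared gained regions had. At least 50% was in both lists in 64.4% (60.7 to 67.9%) of the 696 regions with a GMP partner, against 54.0% (51.4 to 56.4%) of the wide shared gained regions, and the medians were 61.1 and 52.4%. The median width of the former was 3400 bp, against 3000 bp. The order was the same in each width class: 63.0 against 53.7% at 2200 to 2800 bp, 59.8 against 52.0% at 3000 to 3800 bp, 64.0 against 54.6% at 4000 to 5800 bp and 77.3 against 63.3% at 6000 bp or more. Within classes the intervals overlapped (56.1 to 69.6% against 50.004 to 57.4% in the narrowest, for example). Narrower shared gained regions lay close to the wide ones in this measure, at 53.0% (51.1 to 54.9%).

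Wide shared regions lay in gained domains more often than gained regions at large. Stitched at 12500 bp, 834 of 1557, or 53.6% (51.1 to 56.1%), were in domains of 3 or more gained regions, against 42.0% of all gained regions and 44.4% (42.5 to 46.3%) of narrower shared ones. For the 345 wide gained regions of 1 list the share was 47.8% (42.4 to 53.2%), an interval that overlaps that of the wide shared regions. Within the wide shared regions it was 47.7% (44.0 to 51.4%) at 2200 to 2800 bp and 67.8% (57.1 to 77.2%) at 6000 bp or more. With gained regions no more than 1 kb apart joined first, the shares were 45.2% (42.7 to 47.7%) for wide shared, 35.8% for narrower shared, 39.7% (34.5 to 45.1%) for wide regions of 1 list and 32.3% for all gained regions. At 12500 bp, 410 wide shared regions, or 26.3% (24.2 to 28.6%), stood alone, against 33.9% of all gained regions, 32.5% of narrower shared ones and 29.0% (24.3 to 34.1%) of wide regions of 1 list.

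Most of these regions had no other within 12500 bp, but more of them had one than gained regions at large did. The nearest other wide shared region lay at a median of 75 kb (quartiles 15.6 and 386.2 kb), and 340, or 21.8% (19.8 to 24.0%), had one within 12500 bp. Of narrower shared gained regions 16.0% (14.6 to 17.4%) had a wide shared region within that distance, and of all gained regions 15.1%. Stitched among themselves, 1217 stood alone, 270 were in pairs, 66 in groups of 3 and 4 in a single group of 4.

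That group of 4 lay on chromosome 15 in band qE1, from 77628401 to 77682800, and covered 25600 bp of 54.4 kb. Its regions measured 9800, 3400, 4800 and 7600 bp, and their parts in both lists were 69.4, 0, 91.7 and 97.4%. In the region of 3400 bp (77650601 to 77654000) a k- region of 2400 bp touched a k+ region of 1000 bp, so neighbours in 1 group ran from no shared base to almost complete overlap. No GMP region lay in the span, and the nearest was 2.6 kb beyond its higher end.

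A further 22 groups held 3 each, and the 4 that covered the most bp follow. On chromosome 2 in band qH3, from 167565601 to 167603000, regions of 3200, 10200 and 4800 bp lay among 7 gained regions. On chromosome 14 in band qD1, from 66840601 to 66862400, regions of 4800, 8200 and 3400 bp filled 75.2% of the span. A second group on chromosome 14 in band qD3, from 75574001 to 75597000, filled 69.6%. The last, on chromosome 10 in band qC2, from 95625201 to 95652200, ended in the region with 4 k+ pieces. All 5 spans held 0 GMP regions, and the nearest lay between 2.6 and 148.2 kb away.

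**Figure D4:**
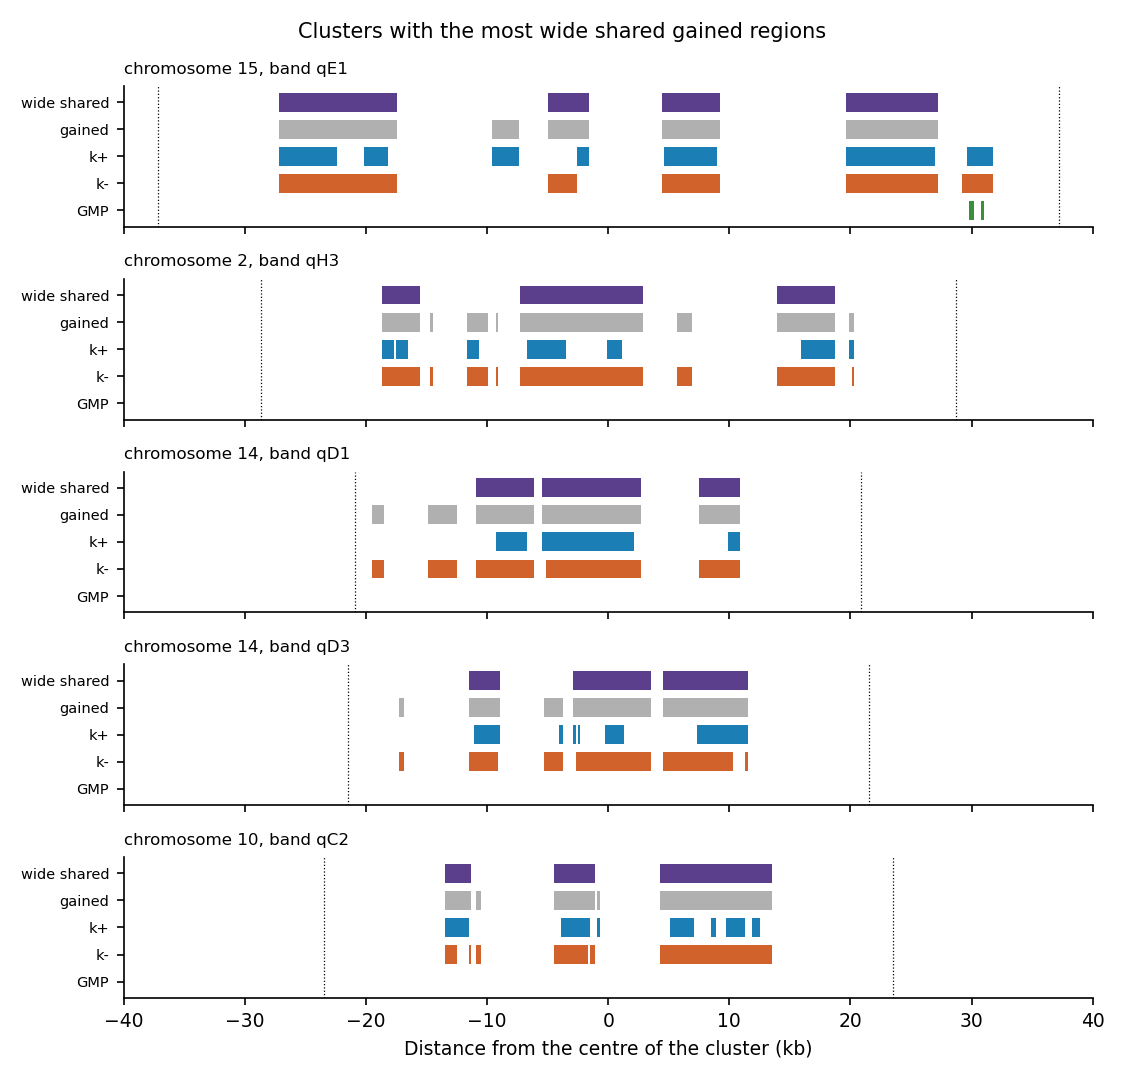
The group of 4 wide shared regions and the 4 of 22 groups of 3 that cover the most bp, as distance in kb from the centre of each group; rows show wide shared, all gained, k+, k- and GMP regions, and dotted lines mark the limits of what is drawn, 10 kb beyond each group. GMP regions appear beside the chromosome 15 group only, outside its span, and k- bars are longer than the k+ bars in most of the regions drawn.

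Close to GMP regions the wide shared regions did not stand apart, and at longer range more of them had a GMP region nearby. A GMP region lay within 12500 bp of 336, or 21.6% (19.6 to 23.7%), against 20.2% of all gained regions, 21.1% of narrower shared and 21.4% of wide regions of 1 list. Within 1 kb the share was 3.53% (2.67 to 4.57%), against 5.03% (4.23 to 5.92%) of narrower shared and 4.47% (4.14 to 4.81%) of all gained regions. Within 100 kb it was 60.8% (58.3 to 63.2%), against 55.2% (53.3 to 57.1%) of narrower shared, 53.6% (48.2 to 59.0%) of wide regions of 1 list and 53.9% (53.1 to 54.7%) of all gained regions. The median distance to a GMP region was 59.6 kb for wide shared and 83.0 kb for all gained regions. A GMP region touched the end of 20 wide shared regions without overlapping it, or 1.28%, against 1.29% of all gained regions. By construction no gained region overlaps a GMP region. Of merged leukemia regions, this left 69.1% of the wide ones in both lists and 90.0% of all. The part of this filter in the short-range shares was not tested.

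**Figure D5:**
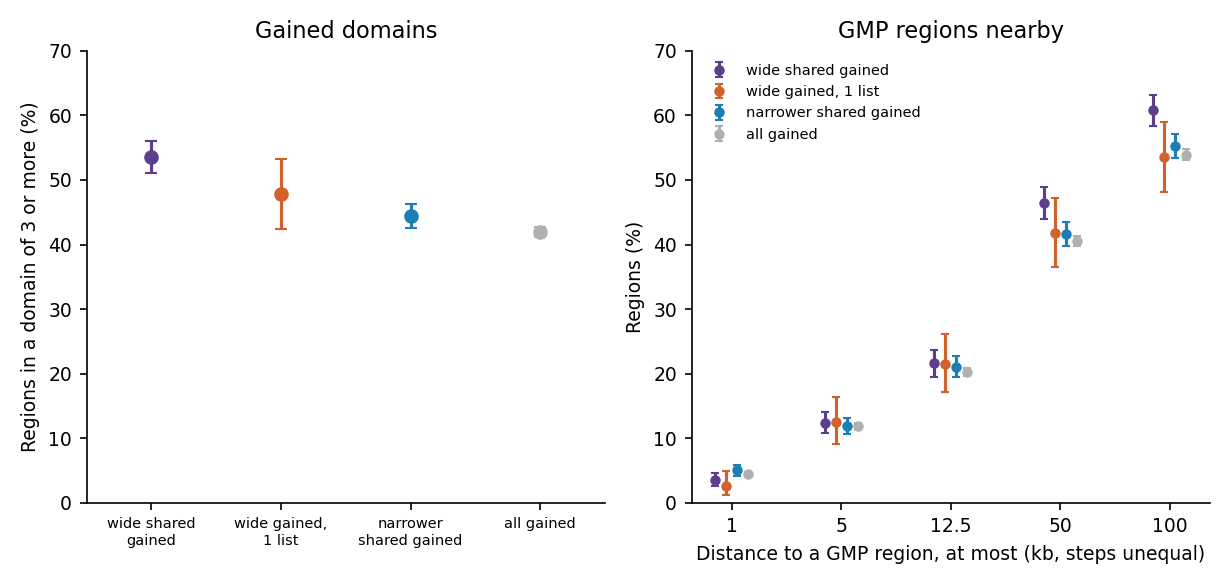
Left, percent of regions in domains of 3 or more gained regions stitched at 12500 bp; right, percent of regions with a GMP region within 5 distances from 1 to 100 kb (in unequal steps). Points are shares and bars exact 95% intervals for wide shared, wide 1-list, narrower shared and all gained regions; wide shared regions are highest on the left (53.6%) and at 100 kb on the right (60.8%), and level with the others at 12500 bp (21.6%).

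GMP regions within 50 kb of a wide shared region were kept in leukemia more often than those farther away. Of 3186 autosomal GMP regions, 937 lay within 50 kb of a wide shared region, and 33.0% (30.0 to 36.1%) of these were lost, meaning that they met no k+ or k- region. Of 1734 with another gained region but no wide shared region within 50 kb, 42.0% (39.7 to 44.4%) were lost, and of 515 with no gained region there, 64.1% (59.8 to 68.2%). The share did not fall further at shorter range: 34.1% (29.6 to 38.9%) of the 422 within 12500 bp and 36.8% (30.6 to 43.5%) of the 228 within 5 kb were lost, and the last interval holds the 42.9% of all GMP regions. Narrow GMP regions are lost more often, so the shares were also taken by width. For GMP regions of 200 to 400 bp they were 43.2% (38.5 to 48.0%), 54.6% (51.2 to 58.0%) and 75.4% (70.02 to 80.3%) in the same order. At 600 to 1000 bp they were 32.5, 37.5 and 57.0%, and the intervals of the first 2 overlapped (27.2 to 38.0% and 33.4 to 41.7%). At 1200 bp or more they were 10.4% (6.45 to 15.5%), 18.7% (14.7 to 23.2%) and 37.0% (26.6 to 48.5%), and the first 2 intervals overlapped here too. GMP regions near a wide shared region and those near another gained region were thus separated by their intervals in the narrowest class only. The density of leukemia regions around these GMP regions moves with the grouping, and its part in the shares was not tested.

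Every autosome carried wide shared regions, in numbers that ran with those of all gained regions. There were 63.0 per 100 Mb, from 40.7 on chromosome 3 to 94.6 on chromosome 19. Chromosome 2 held the most, 143. As a share of a chromosome's gained regions they ranged from 8.02% (6.12 to 10.3%) on chromosome 17 to 12.54% (9.96 to 15.5%) on chromosome 14, and the interval held the overall 10.4% on 18 of 19 chromosomes, chromosome 17 being the exception. Of 369 autosomal bands, 291 held at least 1. The band with the most was qH3 on chromosome 2, where they were 24 of 167 gained regions in 10.3 Mb. It was followed by qA on chromosome 19, with 23 of 182 gained regions in 16.7 Mb. In qD3 on chromosome 14 they were 20 of 104 gained regions in 12.0 Mb.

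Bands that stain light with Giemsa, which tend to be gene-rich, held 48.0% (45.5 to 50.6%) of wide shared regions, against 47.2% of all gained and 46.3% of GMP regions, in 41.2% of autosomal length. The darkest bands made up 31.2% of the length and held 22.2% (20.1 to 24.3%) of wide shared, 22.4% of all gained and 21.8% of GMP regions, but 28.4% (23.7 to 33.5%) of wide gained regions of 1 list. Long stretches held none. The longest between neighbouring wide shared regions, 20.0 Mb on chromosome 7 from 51177401 to 71143800, contained 70 narrower or unshared gained regions and 15 GMP regions. One of 18.1 Mb on chromosome 14, from 80397401 to 98485600, contained 12 gained regions and 0 GMP regions.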

How the data were processed

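The 24 ChIP-seq samples fall into 24 groups of 1 sample. The values used were 6 region lists, deposited by the authors for the series as 1 set, each with 3 columns (chromosome, start and end) and no score. Per the submitters' processing notes BWA, Picard, MACS2, HOMER and deepTools were used with build mm9; their settings, the rule for calling an enhancer and the marks behind it are not stated in them. Every position was a multiple of 200 bp. Positions are mm9 and counted from 1.

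The k+ and k- lists were merged, touching regions included; the merged regions without a GMP overlap were, with identical coordinates, the gained list. Overlaps were counted in Python 3.11.15 with pandas 2.3.3, NumPy 2.4.6 and SciPy 1.17.1, tested on simulated data, and the number of wide shared regions was checked with bedtools 2.31.1. Distances run from edge to edge. Domains are regions no more than 12500 bp apart. Bands come from circlize 0.4.16 and chromosome lengths from GenomeInfoDb 1.38.1 (R 4.3.3); figures were drawn with matplotlib 3.10.9. No test was made, since no list has a replicate.

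The regions and comparisons were chosen with earlier results of these data known. The rule named the 10 widest regions (11 here, as the last 2 were equally wide), the 5 groups with the most of them and the 5 regions with the most k+ and k- pieces, with ties broken by covered length and by width, and the 5 with the smallest and largest part in both lists among those of 4000 bp or more, where the fifth smallest was tied and both are given. The bands, chromosomes and stretches named were chosen after their values were seen. The gene and promoter tables at hand are for GRCm38, so genes, start sites, motifs and sequences were not analysed here.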

Additional observations from a re-analysis of the deposited data

How the results depend on the processing

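No paired analysis was possible because no group has a replicate, and leaving out a replicate was not applicable. Of 22 alternative values, 14 were counted as moved and 8 as not. None changed sign, but only the k- minus k+ length could have done so, the others being counts and shares. Distances to start sites and motif shares, also planned, were not run. The 8 include the number of wide shared regions at other width minimums, although this number did differ. It was 2185 at 1800 bp and 1140 at 2600 bp, against 1557. The number of wide shared regions was 983 when each list had to cover 50% of the region. At least 80% was in both lists in 13.7%. Joining regions of a list within 1 kb raised the share made of 1 region of each list to 93.4%, and a minimum of 3000 bp lowered it to 65.1% and raised the median k- minus k+ length to 1000 bp. Domains stitched at 5 kb held 27.6% and at 25 kb 71.7%. Another wide shared region lay within 5 kb of 11.3% and within 25 kb of 32.8%, and a GMP region within 5 kb of 12.3% and within 50 kb of 46.4%; these follow from the distance asked. The 4 alternatives chosen after seeing the data gave, with gained regions within 1 kb joined, 45.2% in domains, and for the 468 regions of 2200 bp or more in each list 59.2% in domains, a median of 73.7% in both lists and 20.1% with a GMP region within 12500 bp, which did not move. Asking for 2200 bp in each list favours a larger part in both, so nothing is read from the 73.7%. The cause of the changes listed here was not tested beyond the settings' own construction. The lists hold no scores, so a stricter call could not be tried.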

Other observations

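On the X chromosome, which lay outside the rule, 21 of 230 gained regions had the same width and overlapped both leukemia lists, or 9.13% (5.74 to 13.6%), against 10.4% on autosomes. There were 12.6 per 100 Mb against 63.0 on autosomes, and 138.0 gained regions of any kind per 100 Mb against 605.1. Their median width was 3600 bp. The widest, 6800 bp in band qD from 103340601 to 103347400, had 29.4% of its length in both lists, and the next, 6200 bp in band qF5 from 163540201 to 163546400, had 64.5%. The 3 widest lay between 2865.6 and 5809.0 kb from a GMP region. On Y there was no gained region. The number of X copies in these cells is not stated in the labels, and its part in the density was not tested.

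Counted by gained domain in place of neighbouring wide shared regions alone, a domain of 14 gained regions on chromosome 18 in band qD3 held 5 wide shared regions covering 15600 bp, with 10 k+, 12 k- and 0 GMP regions. Domains on chromosome 3 in bands qF1 (90461401 to 90514000) and qA1 (9850001 to 9914600) held 4 each, among 12 and 13 gained regions. These domains were chosen after their values were seen.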
